A study of Mus musculus with 6 samples.

Results

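The nuclear genes of oxidative phosphorylation were taken as all rows of the deposited count table whose symbols start with Nduf, Uqcr, Atp5, Cox4, Cox5, Cox6, Cox7 or Cox8, together with Sdha, Sdhb, Sdhc, Sdhd, Cycs and Cyc1. This rule, which uses names and no measured value, gave 93 members of the 20234 rows. Of these, 83 encode subunits of complexes I to V or cytochrome c, and 10 are assembly factors, other genes or pseudogenes that share the prefixes. All 93 had at least 1 unique molecular identifier (UMI, the tag that marks 1 captured transcript) in the retained cells, 59 had at least 1000 and 8 had fewer than 100. The members held 126699 of 6270896 UMIs outside the mitochondrially encoded (mt-) rows, or 2.02%. Complex I held 36 members and 34.99% of these UMIs, complex II 4 members and 2.71%, complex III 9 members and 10.1%, complex IV 18 members and 26.0%, and complex V 15 members and 23.3%. Cycs, the soluble electron carrier between complexes III and IV, held 0.514%.

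CA1 tissue of 6 male C57Bl6 mice was dissociated for Drop-seq, a droplet method that captures the polyadenylated RNA of a cell on a barcoded bead and counts it as UMIs. Mice 2, 4 and 6 had received a single injection of 5000 IU/kg recombinant human erythropoietin (EPO) at postnatal day 28, mice 1, 3 and 5 a single injection of placebo, and all were analyzed 6 h later. No transgene or other genetic change is named for either group. The labels also give a D number of unstated meaning, which is 1 for mice 1, 2 and 3 and 2 for mice 4, 5 and 6. The filter on cells kept 973 of 6000 barcodes (390 placebo, 583 EPO). It asked for over 1000 detected genes, no more than 8000, and an mt- share of UMIs not above 40%.

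Oxidative phosphorylation passes electrons from NADH through complex I and from succinate through complex II to ubiquinone, then through complex III, cytochrome c and complex IV to oxygen, and the proton gradient built on the way drives ATP synthesis by complex V. Most subunits are encoded in the nucleus and imported, whereas a small core of complexes I, III, IV and V is encoded by mitochondrial DNA, whose transcripts appear here as mt- rows. Complex II is wholly nuclear-encoded. Neurons spend much of this ATP on ion pumping and synaptic transmission, and mitochondria are abundant in their dendrites and axon terminals.

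Nuclear respiratory factor 1 (NRF1), ETS-family factors such as GABP and YY1 are known regulators of these genes, so the RefSeq promoters (GRCm38.p6, 250 bases before to 50 after the annotated start) were searched on both strands for the letters GCGCATGC (NRF1 core, GCATGCGC on the other strand), CCGGAAG (ETS, CTTCCGG on the other strand) and AAGATGGCG (YY1, CGCCATCTT on the other strand). A promoter was given for 73 of the 93 members. A gene was counted if any of its promoters held the letters. The NRF1 letters were found in 13 of 73 members (17.8%) and in 3.05% of all 27025 genes with a promoter. The ETS letters were found in 17 members (23.3%) and 9.93% of these genes, and the YY1 letters in 7 (9.59%) and 1.64%. At least 1 of the 3 motifs was present in 31 members (42.5%) and in 13.6% of all genes with a promoter. The NRF1 letters and their complement share bases and can overlap, and a match is a description of the sequence, not a binding site. The stretches below are shown 5′ to 3′ on the gene's strand, with the matched letters in capitals, for members named in the results. Cycs and Sdhb are shown with the NRF1 core, Cox6b1, Uqcr11 and Uqcrh with the ETS letters, and Atp5j with both YY1 and ETS letters. The promoter of Sdhb also held the ETS letters and that of Uqcr11 the NRF1 letters, both outside the stretch shown.
Cycs (chr6:50566596-50566655, minus strand): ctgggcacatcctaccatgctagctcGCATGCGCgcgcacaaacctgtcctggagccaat
Sdhb (chr4:140961191-140961250, plus strand): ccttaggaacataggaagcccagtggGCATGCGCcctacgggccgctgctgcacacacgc
Cox6b1 (chr7:30626115-30626174, minus strand): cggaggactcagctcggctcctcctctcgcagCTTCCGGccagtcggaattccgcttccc
Uqcr11 (chr10:80406854-80406913, minus strand): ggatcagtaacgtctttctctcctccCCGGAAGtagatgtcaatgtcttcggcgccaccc
Uqcrh (chr4:116075071-116075130, minus strand): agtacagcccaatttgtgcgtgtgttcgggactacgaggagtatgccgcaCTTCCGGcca
Atp5j (chr16:84835018-84835077, minus strand): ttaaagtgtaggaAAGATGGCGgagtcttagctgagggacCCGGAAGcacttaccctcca

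Cycs encodes cytochrome c, Sdhb the iron-sulfur subunit of complex II, Cox6b1 a complex IV subunit on the side of the intermembrane space, Uqcr11 and Uqcrh small subunits of complex III, and Atp5j coupling factor 6 of complex V. In all 6 stretches the capitals lie upstream of the annotated start, with their first base between 10 bases (Uqcrh) and 88 bases (the YY1 letters of Atp5j) before it.

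The 6 libraries held 43 (mouse 3) to 271 (mouse 4) retained cells, 204479 to 1948490 UMIs and a median of 4088 to 4924 UMIs per cell, with a median mt- share per mouse of 3.58% to 18.3%. The libraries of mice 1 and 4 stood apart in 2 ways. First, 26 barcode sequences of retained cells occurred in both, and none was shared by any other pair of mice. The paired profiles correlated with a median r of 0.763 (0.636 to 0.871), against 0.335 for 300 pairs of other cells, and the mouse 1 copy was the deeper in 26 of 26. Second, 41 of 4404 genes with at least 300 UMIs had a mean level in mice 1 and 4 at least 4-fold above the mean of the other mice, with both of these mice above every other one, 29 of them ribosomal protein genes, and 0 were lower. This set included the members Cox7c and Cycs. Cox7c, a small complex IV subunit, had 387 and 478 CPM (UMIs per 1000000 UMIs) in mice 1 and 4 and 79.9 to 132 in the other mice, and Cycs had 154 and 175 against 19.3 to 53.3. Atp5g2, a gene for the c subunit of complex V, had 75 UMIs, 28 in mouse 1 and 47 in mouse 4. Levels of Cox7c, Cycs, Atp5g1, Atp5g2 and Ndufa4l2 were therefore treated as uncertain, and results below are also given without the shared barcodes or without these 2 libraries where that changed them. Doublets were not called and were kept.

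Cells were clustered without the members and the mt- genes, so that their levels did not shape the clusters. Of the 13 clusters, 6 (619 cells) were named glutamatergic-like from their markers, and the others formed GABAergic-like (46 cells), astrocyte-like (75), oligodendrocyte-like (102), oligodendrocyte precursor (OPC)-like (65), endothelial-like (39), microglia-like (18) and mural-like (9) classes. The OPC-like cluster was led by markers of both precursors and committed precursors (Pdgfra, Vcan, Gpr17, Enpp6, Neu4). The glutamatergic-like label was weakest in clusters 0 and 1. Cluster 0 was led by Tshz3, Garnl3 and Rmst, and its mean glutamatergic marker score of 0.701 was close to its oligodendrocyte score of 0.666. Cluster 1 was led by Hba-a1 and Hba-a2, haemoglobin genes of red blood cells. Hba-a1 was seen in 17.4% of its cells, within the range of the other clusters (4.35% to 23.1%), and was not used to name it. Class results that change without cluster 1 are given with that value.

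The glutamatergic-like clusters were placed in a high and a low group by their mean member level. Levels were expressed as member UMIs per 10000 UMIs outside the mt- rows, summed per mouse over mice with at least 5 cells. In cluster 2 (126 cells, led by the CA1 genes Spink8 and Hpca), the level was 282, 221, 238 and 263 in mice 2, 4, 5 and 6, or 251 ± 26.8 (SD, n = 4 mice). In cluster 5 (89 cells, led by Nts and Slc17a6, genes of the subiculum), it was 304, 329, 332, 261 and 370 in mice 1, 2, 4, 5 and 6, or 319 ± 40.2 (n = 5). Cluster 10 (34 cells, led by Gapdh, Ppia and ribosomal protein genes) came from mice 1 and 4 alone, with 270 and 259. Its leading genes Gapdh, Ppia, Actg1, Rpl10, Rpl12, Rps6, Rpl21 and Rps23 were among those raised in the libraries of these mice. Its mean CA1 marker score of 0.931 was near the 1.02 of cluster 2, so it may not stand for a separate kind of neuron.

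The other 3 glutamatergic-like clusters lay far lower. The level was 68.8 ± 13.6 (n = 6) in cluster 0 (137 cells), 52.1 ± 11.3 (n = 5) in cluster 1 (132 cells) and 76.3 ± 10.5 (n = 5) in cluster 4 (101 cells, led by Slit1 and Ildr2). The highest value of any mouse in these clusters was 90.3 and the lowest in clusters 2, 5 and 10 was 221. Because the clusters were grouped by this same level, a gap between the groups follows in part from the grouping. Per cell, the 249 cells of clusters 2, 5 and 10 had a median of 259 (5th to 95th percentile 149 to 400), and the 370 cells of clusters 0, 1 and 4 a median of 58.6 (25.1 to 104). Of 83 members with at least 100 UMIs in glutamatergic-like cells, 76, 81 and 75 lay above the oligodendrocyte-like level in clusters 2, 5 and 10, and 74, 78 and 73 below it in clusters 0, 1 and 4. The share of all genes above or below that level was not determined, so these counts do not set the members apart from other genes.

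All complexes took part. Complex I members together stood at 91.4 ± 9.70 in cluster 2 and 107 ± 15.6 in cluster 5, against 22.9 ± 4.68, 17.7 ± 4.00 and 24.5 ± 2.70 in clusters 0, 1 and 4. For complex IV the levels were 62.0 ± 9.29 and 88.0 ± 12.2 against 16.1 ± 4.62, 12.2 ± 3.33 and 18.5 ± 3.54, and for complex V 58.8 ± 3.35 and 74.7 ± 9.80 against 16.4 ± 2.53, 11.8 ± 2.67 and 19.3 ± 3.62. Complex II, whose 4 genes gave the fewest UMIs, had 7.18 ± 0.87 and 8.05 ± 1.22 against 2.49 ± 0.69, 1.77 ± 0.62 and 2.18 ± 0.39 (SD over 4 to 6 mice). Each complex thus differed by more than these SDs, between clusters that had been grouped by the summed level of all members.

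Other measures moved with this split. Median UMIs per cell were 9946, 8447 and 13956 in clusters 2, 5 and 10 and 3845, 3541 and 4645 in clusters 0, 1 and 4. Median mt- shares were 3.37%, 5.03% and 5.15% against 20.5%, 16.1% and 9.15%. Malat1, a long noncoding RNA retained in the nucleus, stood at 201, 163 and 227 UMIs per 10000 in the high clusters and at 1149, 1478 and 815 in the low ones, and Meg3, another long noncoding RNA, at 74.8, 109 and 78.1 against 626, 473 and 259. Their part in the member levels was not tested. The share of glutamatergic-like cells in clusters 2, 5 and 10 was 28.9%, 19.6%, 31.3%, 34.9%, 61.3% and 51.9% in mice 1 to 6, so any level over the whole class also depended on this mixture.

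**Figure D1:**
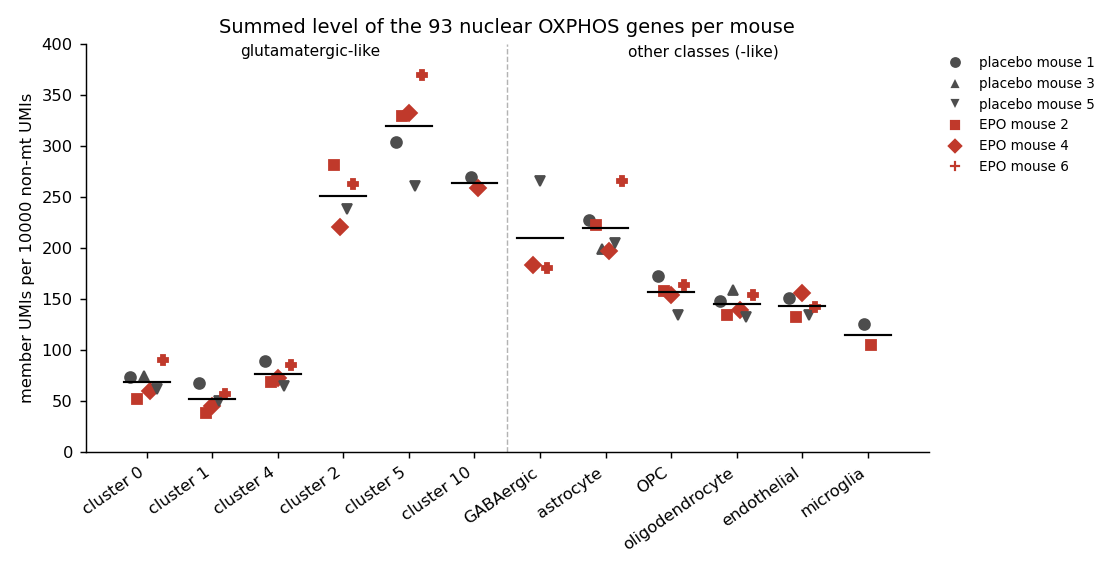
Summed level of the 93 nuclear OXPHOS genes (y axis, member UMIs per 10000 non-mt UMIs) in each glutamatergic-like cluster and in the other classes, with 1 symbol per mouse with at least 5 cells, placebo in grey and EPO in red, and a bar at the mean over mice. Clusters 0, 1 and 4 sit at 90.3 or below in every mouse, clusters 2, 5 and 10 at 221 or above, and oligodendrocyte-like, OPC-like, endothelial-like and microglia-like cells between.

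Over whole classes with at least 5 cells in a mouse, the summed level was lowest in microglia-like and highest in astrocyte-like cells, with both neuronal classes near the latter, but the order depended on whether UMIs or cells were weighted equally. The median of single cells was 83.4 in glutamatergic-like and 69.0 in GABAergic-like cells, below microglia-like (105), oligodendrocyte-like (143) and astrocyte-like cells (224). The level in glutamatergic-like cells was 188, 179, 162, 203, 208 and 269 in mice 1 to 6 (202 ± 37.1, n = 6). In astrocyte-like cells it was 228, 223, 199, 197, 205 and 266 (220 ± 25.7, n = 6). GABAergic-like cells reached 184, 265 and 181 in mice 4, 5 and 6 (210 ± 48.0, n = 3). These 3 classes overlapped. Oligodendrocyte-like cells had 148, 135, 159, 140, 133 and 154 (145 ± 10.6, n = 6), OPC-like cells 157 ± 14.1 (n = 5), endothelial-like cells 143 ± 10.5 (n = 5) and microglia-like cells 125 and 105 in mice 1 and 2. Neighbouring classes in the order from microglia-like to OPC-like cells also overlapped, apart from microglia-like cells, which lay below the 132 to 156 of endothelial-like cells. The summed level was higher in glutamatergic-like than in oligodendrocyte-like cells in 6 of 6 mice, with ratios of 1.27, 1.33, 1.02, 1.45, 1.56 and 1.75 (1.396 ± 0.251), and higher in astrocyte-like than in glutamatergic-like cells in 3 of 6 mice, with a ratio of 1.10 ± 0.13. As a mean over cells, glutamatergic-like cells lay below oligodendrocyte-like cells in mice 2 (95.1 and 136), 3 (139 and 164) and 4 (131 and 137) and above them in mice 1, 5 and 6, and the mean ratio was 1.01. The ratio of astrocyte-like to glutamatergic-like cells was then 1.58. Without the shared barcodes, mouse 1 fell from 188 to 134 in glutamatergic-like cells and from 148 to 119 in oligodendrocyte-like cells, while mouse 4 moved from 203 to 202 and from 139.8 to 139.2.

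Single members were then compared between glutamatergic-like and oligodendrocyte-like cells, with UMIs summed per mouse and class, mouse as a block and edgeR's quasi-likelihood test with Benjamini-Hochberg adjustment at 5% over all 3895 genes tested. Of 78 members that passed the filter on low counts, 30 were higher and 5 lower in glutamatergic-like cells. The background was 41.6% of all genes higher and 24.9% lower, and the median log2 fold change was 0.37 over the members and 0.32 over all genes. The members' share of higher calls (38.5%) was thus near the background. By complex, 10 of 36 members of complex I, 1 of 4 of complex II, 2 of 9 of complex III, 6 of 12 of complex IV and 8 of 13 of complex V were higher.

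Members with the smallest adjusted p are described here in CPM of UMIs outside the mt- rows. Ndufa4, a subunit now assigned to complex IV, had 581, 713, 449, 556, 609 and 899 CPM in glutamatergic-like cells of mice 1 to 6 and 278, 327, 257, 164, 218 and 305 in oligodendrocyte-like cells. Every glutamatergic value lay above every oligodendrocyte value, and the log2 fold change was 1.19 (SE 0.20, edgeR adjusted p = 2.4e-08). Cox5a, a nuclear subunit of complex IV, gave 1.198 (SE 0.22) and Atp5b, the catalytic beta subunit of complex V, 1.06 (SE 0.20), again with no overlap between the classes. Atp5g1, a gene for the c subunit of complex V, gave 1.28 (SE 0.25) but was 1.84-fold higher in the libraries of mice 1 and 4.

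The 5 lower members were Ndufaf2, Sdhc, Ndufa3, Ndufb7 and Ndufb11. Ndufaf2, an assembly factor of complex I, had 101, 63.1, 60.6, 92.1, 108 and 118 CPM in glutamatergic-like cells and 151, 138, 184, 238, 342 and 236 in oligodendrocyte-like cells, with a log2 fold change of -1.30 (SE 0.23, edgeR adjusted p = 2.0e-07). It was lower in the neurons of all 6 mice, without overlap. Sdhc, a membrane anchor of complex II, was lower in 6 of 6 mice (-1.16, SE 0.27). Ndufa3 (-0.90) and Ndufb7 (-0.64), accessory subunits of complex I, were lower in 5 of 6 mice. Cox4i1, the nuclear complex IV subunit with the most UMIs of any member (4774), did not pass the test (-0.32, edgeR adjusted p = 0.106).

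The number of higher members depended on single libraries. It was 14 without mouse 4, 19 without mouse 5, 40 without mouse 3, 15 without the shared barcodes and 12 without the libraries of mice 1 and 4, and the number of lower members was 9 without mouse 5. The share of all genes called in the same settings is not given beside these counts. With library totals in place of scaling by the trimmed mean of M values (TMM), the all-gene median shifted from 0.32 to 0.45 and the members' median from 0.37 to 0.50, with 42 members higher and 4 lower. Of the other pathway genes, 10 of 14 genes of the tricarboxylic acid (TCA) cycle and pyruvate dehydrogenase, 4 of 7 carriers and channels and 5 of 28 mitochondrial ribosomal protein genes were higher and 0, 0 and 2 were lower. Ckmt1, the mitochondrial creatine kinase of brain, had 60.6 to 289 CPM in glutamatergic-like and at most 14.9 in oligodendrocyte-like cells (log2 fold change 4.10), and Atpif1, the inhibitor of ATP hydrolysis by complex V, had 376 to 845 against 93.3 to 226 (1.81). Mrpl48, of the mitochondrial ribosome (-0.80), and Yy1 (-0.70) were lower.

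Between astrocyte-like and glutamatergic-like cells, 28 of 62 members that passed the filter were higher in astrocyte-like cells and 0 were lower, against a background of 23.7% higher and 34% lower among 1434 genes (edgeR, Benjamini-Hochberg). The median log2 fold change was 0.58 over the members and -0.19 over all genes. The calls comprised 12 of 28 members of complex I, 1 of 2 of complex II, 4 of 9 of complex III, 4 of 10 of complex IV and 7 of 13 of complex V. Ndufc2, an accessory subunit of complex I, had 361, 820, 668, 414, 641 and 711 CPM in astrocyte-like cells of mice 1 to 6 and 174, 231, 218, 273, 282 and 368 in glutamatergic-like cells (log2 fold change 1.64, SE 0.25). It was higher in astrocyte-like cells of every mouse, although the lowest astrocyte value lay below the highest neuronal one. Uqcr11 (1.22, SE 0.26), Cox4i1 (1.05, SE 0.24) and Atp5j (1.00, SE 0.25) were likewise higher in 6 of 6 mice.

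These astrocyte calls rested on how the libraries were scaled and on mouse 3, whose 7 astrocyte-like and 16 glutamatergic-like cells also limited which genes passed the filter (1434 with mouse 3, 5944 without it). With library totals in place of TMM, the median of all genes shifted from -0.19 to -0.65, the median of the members was 0.12, and 5 members were higher and 1 lower. Without mouse 3, 4 of 82 members tested were higher and 2 lower, and with DESeq2, 12 were higher and 1 lower. Under both scalings the median of the members lay above that of all genes. Without cluster 1, 14 members were higher and 1 lower, and without the libraries of mice 1 and 4, 9 were higher. These counts are given without the share of all genes called in the same setting. They show how far the calls depend on the setting and no result particular to the members. Among the other pathway genes, Cs, citrate synthase, had 214 to 543 CPM in astrocyte-like and 72.8 to 165 in glutamatergic-like cells (log2 fold change 2.003). The paired subunits of succinyl-CoA synthetase moved apart, with Suclg1, of the shared alpha subunit, higher in astrocyte-like cells (1.603) and Sucla2, the ATP-forming beta subunit, lower (-1.91). Atpif1 was lower (-1.09).

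GABAergic-like and glutamatergic-like cells could be compared in mice 4, 5 and 6. No member passed the edgeR test, 0 of 85 in either direction, with a background of 4.3% of 7767 genes higher and 5.64% lower. At an unadjusted p under 0.05 there were 3 members and 1538 genes, and limma and DESeq2 called 0 members. Uqcr11 had the smallest p, with 128, 166 and 128 CPM in GABAergic-like and 251, 202 and 383 in glutamatergic-like cells (log2 fold change -0.88, SE 0.35, edgeR adjusted p = 0.110). Its values did not overlap between the classes, which also held for 2206 of the 7767 genes tested and for 5 of the 85 members.

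**Figure D2:**
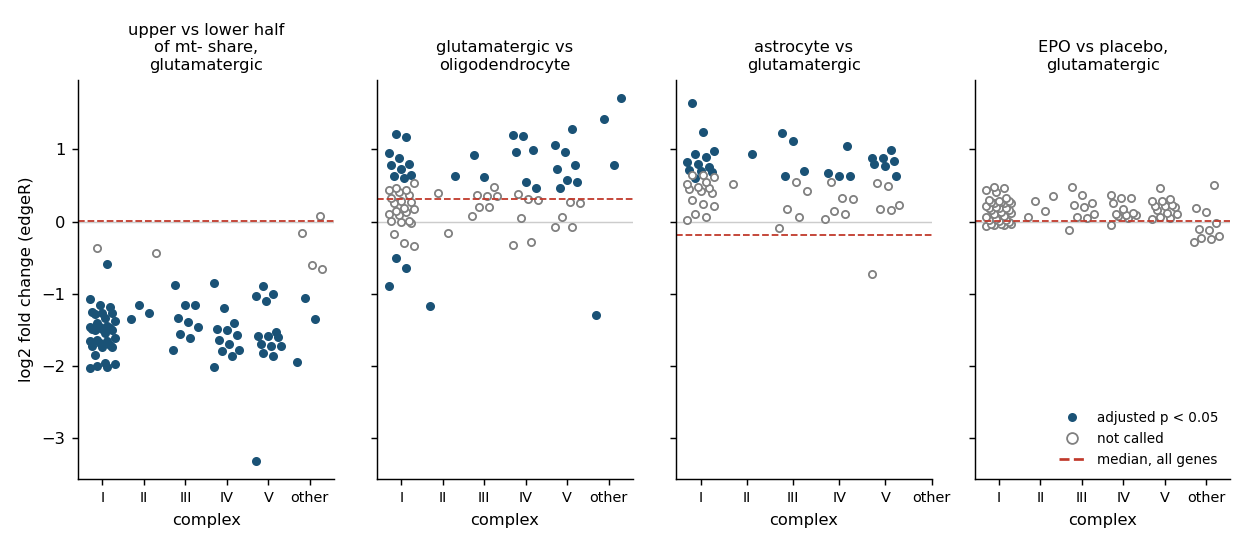
Log2 fold change of each member that passed the filter (y axis, edgeR) by respiratory chain complex (x axis) in 4 comparisons, with calls at an adjusted p under 0.05 filled, other members open, and a dashed line at the median of all genes tested. With rising mt- share 76 of 82 members are called lower, and after EPO none of 85 is called.

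Several subunits of complex IV have a second gene used in certain tissues, and these paralogs were rare but unevenly placed. Cox4i2, the alternative to Cox4i1 known from lung and vessels, had 8 of its 12 UMIs in 4 of 9 mural-like cells (44.4%, exact binomial 95% interval 13.7% to 78.8%), from mice 1 and 6, and was seen in 4 of 964 other cells (0.415%). Ndufa4l2, the alternative to Ndufa4 known as a hypoxia-induced gene, had 13 of its 16 UMIs in 3 of 9 mural-like cells (33.3%, 7.49% to 70.1%), from mice 1 and 4, against 3 of 964 elsewhere (0.311%). Mouse 1 supplied 12 of these 16 UMIs and mouse 4 supplied 3, and mouse 1 supplied 8 of the 12 Cox4i2 UMIs, so both rest largely on the library of mouse 1. Both thus appeared mainly in the class of vessel wall cells, which holds 9 cells with a median of 2596 UMIs, against 4465 elsewhere.

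Cox6a2, known as the heart and skeletal muscle form of Cox6a1, had 11 of its 13 UMIs in 5 of 46 GABAergic-like cells (10.9%, 3.62% to 23.6%), which came from mice 1, 4, 5 and 6, against 2 of 927 other cells (0.216%). Median depth was 4926.5 UMIs in GABAergic-like and 4447 in other cells. Of the 5 cells, 2 also held Pvalb UMIs, the marker of fast-spiking interneurons, which was found in 7 of the 46 cells. Cox6b2, known as the testis form, had 11 of 16 UMIs in 4 of 75 astrocyte-like cells (5.33%, 1.47% to 13.1%), from mice 1, 3, 4 and 5, against 0.557% elsewhere, at a median of 3082 and 4789.5 UMIs. Cox7a1, known from heart and muscle, had 17 of 22 UMIs in 15 of 619 glutamatergic-like cells (2.42%), but its share elsewhere was 1.41%, and median depth was 5233 UMIs against 3802. The intervals and shares cover counting error only. Cox8b, the muscle form of Cox8a, had no row in the table.

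The relation of the members to mt- UMIs of the same cell was examined within each mouse, because the mt- share differed between mice. In glutamatergic-like cells, cells with a larger mt- share had a smaller member share. Spearman's rho across the cells of a mouse had a median of -0.626 (-0.794 to -0.435, 6 mice, 619 cells), and of -0.617 after each cell was thinned to 1500 non-mt UMIs. These are descriptions: cells of a mouse share a library, and depth also moved with both shares, with a median rho of 0.581 for depth and member share and -0.616 for depth and mt- share. In oligodendrocyte-like cells the median was -0.380 (-0.551 to -0.152, 6 mice) and -0.177 after thinning. In astrocyte-like cells it was -0.0806 (-0.249 to 0.321, 4 mice), negative in 2 of 4 mice. Within single glutamatergic-like clusters it was weaker than in the class, with medians of -0.282, -0.210, -0.0909, -0.172, -0.299 and -0.486 in clusters 0, 1, 2, 4, 5 and 10.

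**Figure D3:**
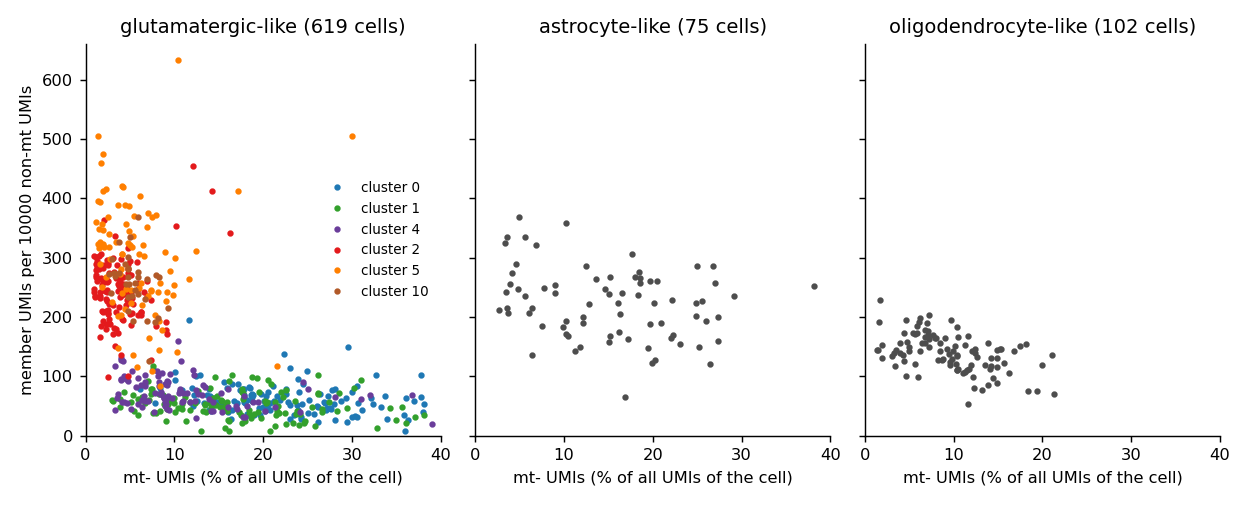
Member UMIs per 10000 non-mt UMIs (y axis) against the mt- share of all UMIs (x axis, %) in each glutamatergic-like, astrocyte-like and oligodendrocyte-like cell, with glutamatergic-like cells coloured by cluster. Cells of clusters 2, 5 and 10 gather at a low mt- share and a median of 259, those of clusters 0, 1 and 4 spread along the x axis at a median of 58.6.

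When the glutamatergic-like cells of each mouse were divided at that mouse's median mt- share, the summed level went from 228 in the cells at or below the median to 84.0 in those above it in mouse 1, from 226 to 47.5 in mouse 2, from 197 to 75.7 in mouse 3, from 257 to 60.7 in mouse 4, from 244 to 126 in mouse 5 and from 310 to 88.5 in mouse 6. The level was lower above the median in every mouse, and the groups did not overlap. Cells of clusters 2, 5 and 10 made up 37.3% to 100% of the cells at or below the median and 0% to 22.1% of those above it, so the division by mt- share was also a division by cluster. GABAergic-like cells could be divided in mouse 4 (252 to 62.0) and mouse 5 (323 to 55.0), with 7 cells on each side. Oligodendrocyte-like cells changed by -6.52 to -37.2 in 6 mice and astrocyte-like cells by -36.5 to 16.1 in 4 mice.

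**Figure D4:**
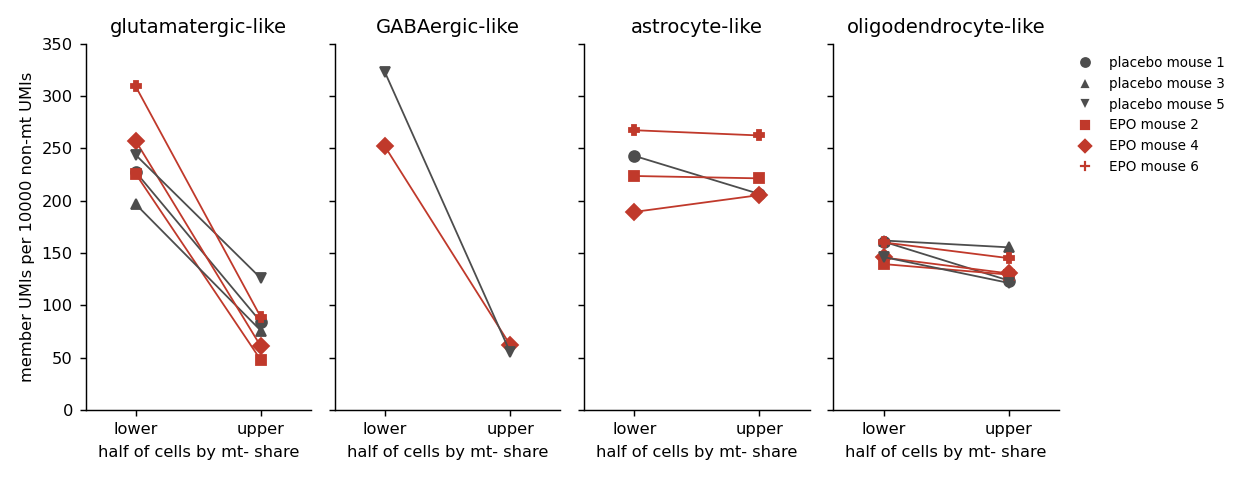
Summed member level (y axis, member UMIs per 10000 non-mt UMIs) in the cells at or below (lower) and above (upper) the median mt- share of their mouse and class, with 1 line per mouse. All 6 lines fall in glutamatergic-like cells, from 197 to 310 down to 47.5 to 126, whereas astrocyte-like cells change by -36.5 to 16.1.

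Member by member, 76 of 82 were lower in the glutamatergic-like cells above the median mt- share and 0 were higher, against a background of 25.3% higher and 26.5% lower among 5696 genes (edgeR with mouse as block, Benjamini-Hochberg). The median log2 fold change was -1.49 over the members and 0.01 over all genes. Lower calls covered 35 of 36 members of complex I, 3 of 4 of complex II, 9 of 9 of complex III, 12 of 12 of complex IV and 14 of 14 of complex V, but 2 of 6 of the assembly factors and other members. Cox6b1 had 569, 530, 322, 590, 590 and 683 CPM at or below the median in mice 1 to 6 and 137, 82.0, 85.0, 76.2, 235 and 124 above it (log2 fold change -2.02, SE 0.19, adjusted p = 1.8e-23). Every value above the median was under every value below it. Cox5b (-1.86), Ndufa5 (-1.84) and Cox7b (-1.79), of complexes IV, I and IV, followed, and the abundant members Cox4i1 (-1.40), Sdhb (-1.27) and Atp5b (-1.03) were called as well. The lowest value was that of Atp5l, subunit g of complex V (-3.31), whose 8.80 CPM or fewer above the median came from few UMIs.

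The members not called were Ndufv1, the NADH-binding subunit of complex I (-0.37), Sdha, the catalytic subunit of complex II (-0.44, adjusted p = 0.0691 by edgeR), and the complex I assembly factors Ndufaf1 (-0.60), Ndufaf4 (0.08), Ndufaf5 (-0.65) and Ndufaf7 (-0.15). The same direction was seen in other nuclear genes of mitochondria, with 13 of 16 TCA cycle genes, 7 of 7 carriers and channels and 45 of 58 mitochondrial ribosomal protein genes lower and 0 higher. Slc25a4, the adenine nucleotide carrier of brain and muscle, had 1951 to 2779 CPM at or below the median and 383 to 1572 above it (-1.63), and Slc25a5, its second form, gave -1.77. Of 5 regulators tested, Ppargc1b, a coactivator of mitochondrial biogenesis, was higher (1.03) and Tfam, which packages mitochondrial DNA and starts its transcription, was lower (-1.03). When the division was made at the median within each mouse and cluster, 0 of 82 members passed, 23 had an unadjusted p under 0.05 and the median of the members was -0.21. With library totals in place of TMM, the all-gene median was -0.19, that of the members -1.68, and 80 members were lower. With cells thinned to equal depth, 44 of the 48 members that passed the filter were lower. No share of all genes stands beside the member counts of these alternative settings, so they are not set against a background. In oligodendrocyte-like cells only 5 members passed the filter and 0 were called, with a background of 0% of 397 genes (26 genes and 0 members at an unadjusted p under 0.05, and 0 members by limma and by DESeq2). Cox4i1 there gave a log2 fold change of -0.18 (SE 0.18, edgeR adjusted p = 0.814).

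Finally, the members were compared between EPO and placebo, with the mouse as the replicate. In all retained cells the summed level was 179, 164 and 206 in placebo mice 1, 3 and 5 and 170, 190 and 255 in EPO mice 2, 4 and 6 (183 ± 21.6 and 205 ± 44.6). In glutamatergic-like cells it was 188, 162 and 208 under placebo and 179, 203 and 269 under EPO (186 ± 22.7 and 217 ± 46.9). As a mean over cells the direction turned, with 132, 139 and 167 in placebo and 95.1, 131 and 189 in EPO mice in glutamatergic-like cells, a difference of -7.59, and a difference of -9.51 in all retained cells. The groups overlapped by either measure, and in the sums EPO mouse 6 alone lay above every placebo mouse. In oligodendrocyte-like cells (147 ± 13.0 and 143 ± 10.0) and astrocyte-like cells (211 ± 15.04 and 229 ± 34.5) they overlapped as well. Without the shared barcodes, placebo mouse 1 fell from 179 to 147 in all retained and from 188 to 134 in glutamatergic-like cells. In oligodendrocyte-like cells it fell from 148 to 119, below every EPO mouse. EPO mouse 4 moved little, from 190.1 to 190.0 in all retained cells. The differences between the groups thus changed with these barcodes. Without them, the excess of the EPO mean in the sums grew in all retained and glutamatergic-like cells. In oligodendrocyte-like cells the placebo mean fell from above to below the EPO mean. The groups still overlapped in all of these. In cluster 5, EPO mice had 329, 332 and 370 and placebo mice 1 and 5 had 304 and 261, without overlap, placebo mouse 3 having too few cells. The other glutamatergic-like clusters with at least 2 mice in a group overlapped and differed by -2.64 (cluster 0), -12.1 (cluster 1) and -1.22 (cluster 4), and cluster 2 differed by 17.1, with 1 placebo mouse inside the range of the EPO mice. Cluster 10, with 1 mouse in each group, differed by -10.8. No test was run on sums over the members.

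The D number moved with the level. Mice of D number 1 had 164 to 179 in all retained cells and mice of D number 2 had 190 to 255, and 2 of 3 EPO mice but 1 of 3 placebo mice belonged to D number 2. Within D number 1 the difference between EPO and placebo was -1.37 in all retained cells and 3.57 in glutamatergic-like cells, and within D number 2 it was 16.5 and 28.8, each with 3 mice. Without the shared barcodes, placebo mouse 1 of D number 1 fell from 179 to 147 and from 188 to 134. It then lay below EPO mouse 2 (170 and 179) rather than above it. The difference between EPO and placebo within D number 1 thus depended on these barcodes. In all retained cells every mouse of D number 1 still lay below every mouse of D number 2. The mt- share (3.58% in EPO mouse 6) and the share of cells in the high clusters also differed between mice, and their part in the levels was not tested.

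**Figure D5:**
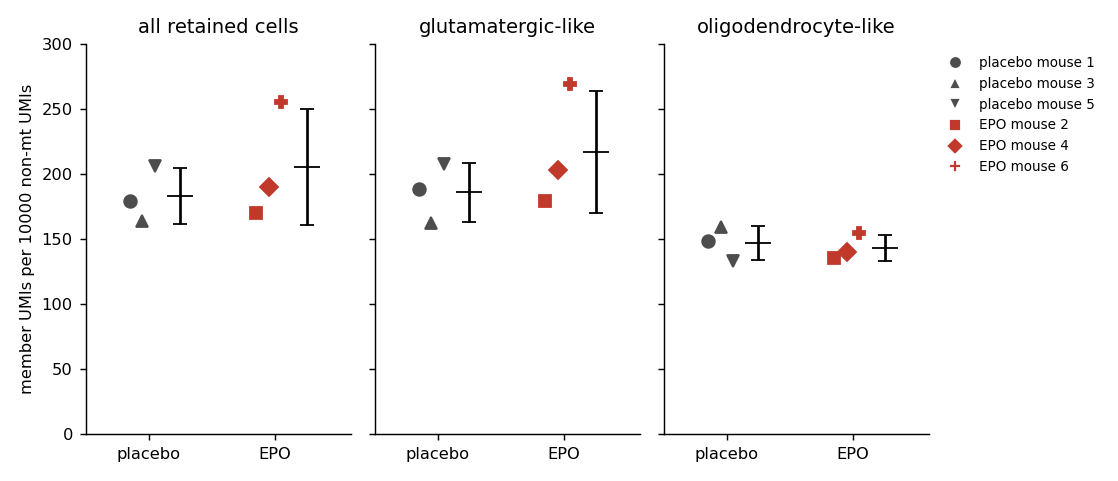
Summed member level per mouse (y axis, member UMIs per 10000 non-mt UMIs) in placebo (grey) and EPO mice (red) for all retained, glutamatergic-like and oligodendrocyte-like cells, with the mean and SD of 3 mice per group. The groups overlap in all 3 panels, and EPO mouse 6 is the highest in the first 2, at 255 and 269.

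No single member passed the test of EPO against placebo. In all retained cells, edgeR with Benjamini-Hochberg adjustment called 0 of 85 members and 0% of 10030 genes, with 0 members and 125 genes at an unadjusted p under 0.05. limma called 0 genes, and DESeq2 called 1 gene that was not a member. The log2 fold change was above 0 in 64 of 85 members, with a median of 0.12 against -0.00457 over all genes. Uqcrh, the hinge subunit of complex III, had the smallest p of the members (157, 131 and 214 CPM under placebo and 224, 195 and 280 under EPO, log2 fold change 0.40, SE 0.24, edgeR adjusted p = 0.9999). This lean rested on EPO mouse 6: without it, 36 of 86 members lay above 0 and the median was -0.07. With the D number as a block the median was 0.02, and without the shared barcodes it was 0.18 with 72 members above 0.

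In glutamatergic-like cells, 0 of 85 members and 0% of 8579 genes were called, with 0 members and 162 genes at an unadjusted p under 0.05 by edgeR. limma and DESeq2 called 0 members, and 1 member had an unadjusted p under 0.05 by limma. The log2 fold change was above 0 in 69 of 85 members, with a median of 0.16 against 0.00 over all genes, which fell to 0.00 without EPO mouse 6 and rose to 0.29, with 79 members above 0, without the shared barcodes. With the D number as a block it was 0.10. EPO and placebo mice did not overlap in 4 members, against a background of 6.98% of all genes. Among them, Ndufa11 (log2 fold change 0.47) and Uqcrh (0.48, SE 0.23) were higher after EPO, and the assembly factor Ndufaf4 (-0.22) was lower. Uqcrh had 154, 121 and 199 CPM under placebo and 233, 199 and 280 under EPO (edgeR adjusted p = 0.9999), and the values of placebo mouse 5 and EPO mouse 4 nearly coincided. Ckmt1, a pathway gene outside the list, gave 0.70 (edgeR adjusted p = 0.9999). In oligodendrocyte-like cells, 46 members passed the filter, and 0 of them and 0% of 1155 genes were called (23 genes and 0 members at an unadjusted p under 0.05). limma and DESeq2 called 0 members, and 1 member had an unadjusted p under 0.05 by limma. Their median was -0.07. Ndufb9, an accessory subunit of complex I, had 255, 404 and 342 CPM under placebo and 172, 214 and 222 under EPO (log2 fold change -0.63, SE 0.34, edgeR adjusted p = 0.9954).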

How the data were processed

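CA1 cells of 3 placebo and 3 EPO mice were measured by Drop-seq. The authors deposited raw UMI counts, not normalized, for 1000 barcodes per mouse, and the submitters' processing notes name bcl2fastq 2.15, STAR 2.4.0 and mm10. Missing values were set to 0. Members, gene lists and tests were chosen with earlier results of these data known. Clustering used Seurat 5.3.0 under R 4.3.3 (1000 variable genes per treatment, 20 dimensions, resolution 1) without members and mt- genes. UMIs were summed per mouse, and a class entered with at least 5 cells per mouse, or 10 for the oligodendrocyte and mt- comparisons. Sums were tested with edgeR 4.0.16 (quasi-likelihood, filterByExpr, TMM on non-mt totals), with mouse as block within mice, after the procedure was tested on simulated data. limma 3.58.1 (prior count 2) and DESeq2 1.42.0 were alternatives. Cells had been treated as replicates in the study's methods, and mice were used here. Fold changes are after TMM and printed CPM before it. Genes named are the 2 members per complex with the most UMIs, tissue paralogs and, per test, up to 4 members and 2 other pathway genes per direction by adjusted p, or the smallest p; further members were chosen after their values were seen. Alternatives covered filters, scaling, depth, mt- limits, D number, class definition and each mouse left out. A gene's reads from near-identical copies cannot be told apart. The values of 1 member are not reported here.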

Additional observations from a re-analysis of the deposited data

How the results depend on the processing

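No paired analysis was possible because the EPO and placebo groups share no mouse number; mouse was the block where cell groups of the same mice were compared. Settings without TMM, without the shared barcodes, without the libraries of mice 1 and 4 and without cluster 1 were added after seeing the data. EPO tests called 0 members under every setting that was run, the D number as a block included. Of 344 values of named members under alternatives, 328 kept direction and call, 16 lost the call and 0 reversed, and 68 cluster levels stayed within 1 SD while 8 moved further. The members named in a test were those with its smallest adjusted p, or the smallest p where none passed. This choice favours values that keep their call, and tests without a call had none to lose. The counts below show larger shifts.

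As a mean over cells, the difference between EPO and placebo in glutamatergic-like cells was -7.59, the glutamatergic to oligodendrocyte ratio 1.01 and the astrocyte to glutamatergic ratio 1.58. After thinning, rho in oligodendrocyte-like cells was -0.177. Members higher in glutamatergic-like than in oligodendrocyte-like cells numbered 15 without the shared barcodes, 12 without the libraries of mice 1 and 4 and 14 to 40 with 1 mouse left out. Lower members numbered 3 with DESeq2, 3 without the filter on low counts, 1 with classes from marker UMIs per cell and 4 to 9 with 1 mouse left out. For GABAergic-like cells, 1 member was higher and 1 lower without the filter, and 0 to 1 were lower with 1 mouse left out. Members higher in astrocyte-like cells numbered 12 with DESeq2, 2 without the filter, 15 at a limit of 20% mt- UMIs, 5 without TMM, 9 without the libraries of mice 1 and 4, 14 without cluster 1, 11 with classes from marker UMIs and 4 to 23 with 1 mouse left out. Lower members there numbered 1 with DESeq2, 5 without the filter, 1 without TMM, 1 without cluster 1, 1 with classes from marker UMIs and 0 to 2 with 1 mouse left out. By mt- share in glutamatergic-like cells, 0 members were lower when divided within mouse and cluster and 44 (of 48 tested) after thinning, with fewer genes passing the filter. In oligodendrocyte-like cells, 2 of 31 were lower with classes from marker UMIs, which put 142 of the 619 glutamatergic-like cells among oligodendrocyte-like ones; no member could be tested there after thinning. The counts above stand without the share of all genes called in the same setting, so they show dependence on the setting only. Causes were not tested. Depth limits the rare paralogs and every class with few cells, and mouse 3, with 43 cells, limits the placebo means.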

Other observations

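Barcodes that did not pass the filter on cells also held member UMIs. Summed per mouse over the discarded barcodes, the level was 154, 103, 135, 113, 99.0 and 145 per 10000 non-mt UMIs in mice 1 to 6, below the retained cells of the same mouse in each case, and their mt- share was 33.2%, 44.2%, 32.7%, 31.3%, 26.3% and 13.3% of all UMIs. OPC-like cells of the 2 mice with enough cells gave a rho between member share and mt- share of -0.0531 and 0.671.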
